A study of Mus musculus with 12 samples.

Results

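The 10 genes described here set how many mitochondria a cell makes and how those mitochondria join and divide: the coactivators *Ppargc1a* and *Ppargc1b*, the transcription factors *Esrra* and *Nrf1*, the mitochondrial DNA factor *Tfam*, the fusion genes *Mfn1*, *Mfn2* and *Opa1*, and the fission genes *Dnm1l* and *Mff*. They were taken by symbol from a table of 38283 genes measured in the arcuate nucleus (ARC) of mice. Each symbol had a single row, and all 10 genes passed the filter on low values that left 14017 genes for testing. The groups were 5 wild-type (WT) mice and 7 mice homozygous (Homo) for the R299Q change in *Prkag2*, which encodes the γ2 subunit of AMP-activated protein kinase (AMPK). All were C57BL/6 males, fed ad libitum and 8 weeks old, and the mutation is a germline knockin present in every cell. The ARC was cut from brain cryosections by laser capture, its RNA was amplified, and 1 library was sequenced per mouse.

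Mitochondrial biogenesis is controlled from the nucleus. PGC-1α and PGC-1β, the products of *Ppargc1a* and *Ppargc1b*, bind transcription factors such as ERRα (*Esrra*) and NRF1 (*Nrf1*). These factors act on nuclear genes of the respiratory chain and on *Tfam*, whose product packages mitochondrial DNA and takes part in its transcription. Mitofusins join outer membranes, OPA1 joins inner membranes, and DRP1 (*Dnm1l*) divides mitochondria after docking on receptors such as MFF. AMPK is known to act on PGC-1α and to phosphorylate MFF, and mitochondrial shape in AGRP neurons is known to vary with feeding state. Much of this control is exerted on proteins, which were not measured in these libraries.

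None of the 10 genes differed between the genotypes after adjustment (limma with Benjamini-Hochberg adjustment, adjusted p from 0.854 to 0.995), where 0.00713% of all genes tested did. The level measured was in FPKM, fragments counted relative to transcript length and library size, and differences were taken after adding 1 to the FPKM and taking log2, a scale on which low genes appear to change less than they did. *Esrra* and *Tfam* had an unadjusted p under 0.05, both with higher means in Homo (2 of 10 genes, against 5.55% of all genes tested and 3.05% for the higher direction alone). *Nrf1* had the largest difference in the other direction without reaching that threshold. Among the fusion and fission genes the largest difference was that of *Mfn2*, with a log2 fold change of -0.35. The genotypes overlapped for every one of the 10 genes, and they failed to overlap for 0.221% of all genes tested.

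The libraries fell into 2 sets by the number of genes above 0, from 15742 to 16467 in 7 libraries (WT 1 and 2, Homo 1 to 5) and from 18141 to 18635 in the other 5 (WT 3 to 5, Homo 6 and 7). The labels name no batch. They are called the fewer-gene and the more-gene set, and the depth of the libraries is unknown. Because the sets hold the genotypes in unequal numbers, differences are also given within them. The median of all genes tested was itself -0.081 in the fewer-gene set and 0.13 in the more-gene set, on the log2 scale. *Prkag2* does not check the labels, since the mutation is a point change, and its mean was 14.6 ± 5.43 FPKM in the 5 WT and 14.8 ± 4.88 FPKM in the 7 Homo libraries (± SD).

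**Figure D1:**
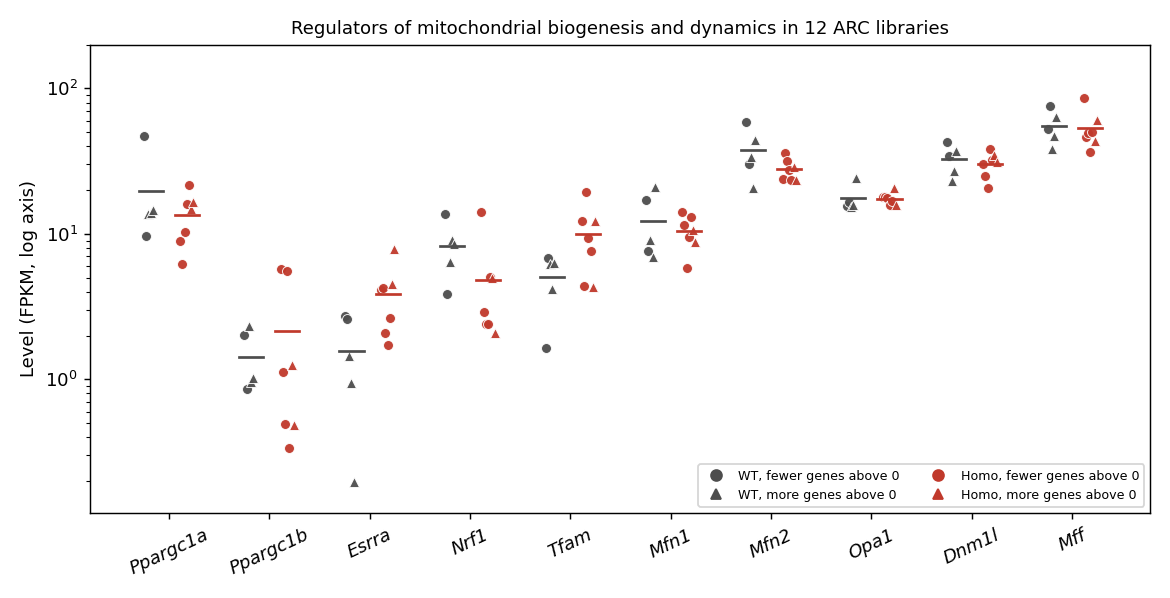
Level of each of the 10 genes in every library, in FPKM on a log axis. Points are single mice, grey for WT (n = 5) and red for Homo (n = 7), with the shape giving the library set, and bars are group means. *Mff* lies highest and *Ppargc1b* lowest, and grey and red points overlap for every gene.

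By level in FPKM, which is per length, the 10 genes spanned most of the range of the genes tested. Coverage along the transcripts of this amplified RNA was not examined, so the order of genes is one of measured FPKM alone. *Mff* had the highest mean over the 12 libraries, 54.1 FPKM (percentile 91.1 of genes tested), followed by *Mfn2* at 31.9 and *Dnm1l* at 31.4 FPKM. The last 2 could not be ordered, as *Mfn2* lay above *Dnm1l* in 5 of 12 libraries. *Opa1* followed at 17.5 FPKM, *Ppargc1a* at 16.1, *Mfn1* at 11.3, *Tfam* at 7.90 and *Nrf1* at 6.29 FPKM. Of these neighbours only *Dnm1l* lay above *Opa1* in all 12 libraries, and *Tfam* and *Nrf1* changed places in 6 of 12. *Esrra*, at 2.92 FPKM, and *Ppargc1b*, at 1.85 FPKM (percentile 12.3), were lowest, with *Esrra* above in 7 of 12. All 5 genes of fusion and fission were therefore measured at higher mean levels than the regulators other than *Ppargc1a*, which itself lay above *Mfn1* in 9 of 12 libraries.

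The genes differed in their spread over libraries. *Opa1* ranged 1.60-fold over the 12 libraries, *Dnm1l* 2.07-fold, *Mff* 2.34-fold, *Mfn2* 2.85-fold and *Mfn1* 3.61-fold. *Nrf1* ranged 6.76-fold, *Ppargc1a* 7.54-fold, *Tfam* 11.8-fold, *Ppargc1b* 17.1-fold and *Esrra* 40.1-fold. The within-genotype SD of *Opa1* on the log2 scale was 0.20, lower than in all but 0.692% of the genes tested. The widths for *Ppargc1a* and *Tfam* rested on WT 1, without which they ranged 3.49-fold and 4.65-fold. That of *Esrra* rested on its lowest value, 0.197 FPKM in WT 5. *Ppargc1b* ran from 0.336 FPKM in Homo 5 to 5.74 FPKM in Homo 1, with Homo 4 at 5.57 FPKM and no other library above 2.33 FPKM.

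Promoter sequence is shown for 4 of the genes, *Esrra* and *Tfam* as those with the smallest p, and *Opa1* and *Mfn1* as genes of fusion that carry the same motifs. RefSeq start sites on GRCm38.p6 were found for 9 of the 10 genes, all but *Ppargc1b*, and windows from 250 bases before to 50 bases after each start were searched on both strands. The NRF1 core GCGCATGC was present for 2 of the 9 genes, *Esrra* and *Opa1*, and for 3.05% of all 27025 genes with such windows. The ETS core bound by GABP, CCGGAAG, was present for 3 of the 9, *Tfam*, *Mfn1* and *Dnm1l*, and for 9.93% of all genes. The ERR core AAGGTCA (5.38% of all genes), the CRE TGACGTCA (2.03%) and the YY1 letters AAGATGGC (3.19%) were in none of the 9 windows. The 100 bases before the start are given 5′ to 3′ on the strand of the gene, with the matched letters in capitals, for *Esrra* at chr19:6921809-6921908 (minus strand), *Opa1* at chr16:29579234-29579333 (plus strand, where matches on both strands overlap), *Tfam* at chr10:71238045-71238144 (minus strand) and *Mfn1* at chr3:32529382-32529481 (plus strand).
*Esrra*: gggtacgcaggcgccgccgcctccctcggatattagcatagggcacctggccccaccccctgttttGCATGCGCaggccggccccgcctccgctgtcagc
*Opa1*: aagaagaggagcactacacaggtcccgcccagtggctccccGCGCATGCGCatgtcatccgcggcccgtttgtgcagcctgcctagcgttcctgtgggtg
*Tfam*: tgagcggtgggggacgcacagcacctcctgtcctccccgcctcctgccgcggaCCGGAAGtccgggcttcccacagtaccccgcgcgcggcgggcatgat
*Mfn1*: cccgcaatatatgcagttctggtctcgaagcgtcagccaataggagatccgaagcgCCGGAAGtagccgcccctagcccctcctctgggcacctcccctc
The match began at position -34 from the start in *Esrra*, -59 in *Opa1*, -47 in *Tfam* and -44 in *Mfn1*. These are letter matches only, and binding was not measured. The starts are those of RefSeq, whereas the gene positions given below are from GENCODE. The GENCODE position of *Tfam* begins further upstream, at 71238280, so its whole printed stretch and match lie inside that annotated gene. The stretches of *Esrra* and *Mfn1* reach a few bases into theirs.

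*Ppargc1a* (ENSMUSG00000029167, chromosome 5 of GRCm38 from 51454250 to 51567726, minus strand) encodes PGC-1α, the coactivator that responds to energy demand. WT 1 to WT 5 held 47.1, 9.61, 13.7, 14.0 and 14.5 FPKM of it, and in Homo the lowest, median and highest values were 6.24, 14.9 and 21.8 FPKM. A single library, WT 1, lay far above the other 11. The log2 fold change of *Ppargc1a* was -0.38 (standard error 0.36, limma adjusted p = 0.923; exact two-sided permutation test over all arrangements of the 12 libraries, p = 0.399). Without WT 1 it was -0.017, and the mean in Homo was 4.40% above that in WT in place of 31.6% below it. WT 1 also held the highest *Mfn2* and *Dnm1l* and the lowest *Tfam* of all libraries. Its summed level of 10 arcuate neuron markers, 6634 FPKM, and of 12 general neuron markers, 1084 FPKM, lay inside the range of the other libraries. So did its sums for the other cell marker lists, and the part of cell content in its values was not tested.

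*Ppargc1b* (ENSMUSG00000033871, chromosome 18 from 61298136 to 61400431, minus strand), the related coactivator, was low throughout. Its levels were 2.01, 0.852, 2.33, 0.952 and 1.02 FPKM in WT 1 to WT 5. In Homo it ran from 0.336 to 5.74 FPKM with a median of 1.12 FPKM, so the Homo libraries enclosed the whole WT range. Homo 1 and Homo 4, at 5.74 and 5.57 FPKM, stood above every other library. Its log2 fold change was 0.087 (95% confidence interval -0.88 to 1.05, limma adjusted p = 0.990), and its sign changed with a smaller pseudocount and once library set was a model term.

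*Esrra* (ENSMUSG00000024955, chromosome 19 from 6910977 to 6921813, minus strand) encodes ERRα, an orphan nuclear receptor through which PGC-1α reaches respiratory chain genes. The WT libraries, in order, held 2.73, 2.58, 1.44, 0.941 and 0.197 FPKM, and the lowest, median and highest Homo values were 1.73, 4.10 and 7.89 FPKM. Every Homo library lay above the WT median and 4 of 7 lay above the highest WT library, while 3 of 5 WT libraries lay below the lowest Homo library. The log2 fold change of *Esrra* was 0.94 (standard error 0.35, limma unadjusted p = 0.0182, adjusted p = 0.854; exact permutation p = 0.0278). Without WT 5, the library with the least *Esrra*, that fold change was 0.69 (limma unadjusted p = 0.0633). Using Homo 1 to 5 alone it was also 0.69 (limma unadjusted p = 0.0809). With library set as a model term it was 0.94 (unadjusted p = 0.0291; exact permutation within sets over 210 arrangements, p = 0.0571), and *Esrra* was then the only 1 of the 10 genes with an unadjusted p under 0.05, against 4.78% of all genes tested.

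The difference in *Esrra* lay in the more-gene set. There WT 3 to 5 held the 3 lowest values and Homo 6 and 7 the highest 2, 4.51 and 7.89 FPKM, and the log2 fold change was 1.97. In the fewer-gene set it was 0.065. The gap between the sets was 1.91 (standard error 0.59, limma unadjusted p = 0.00681, adjusted p = 0.876), and *Esrra* was the only 1 of the 10 genes with an unadjusted p under 0.05 for it (5.18% of all genes). The last 73 bases of *Esrra* overlap the end of *Trmt112*, a gene on the opposite strand whose mean was 47.1 ± 10.5 FPKM in the 5 WT and 41.9 ± 18.1 FPKM in the 7 Homo libraries (± SD). Counting by strand is not stated, so reads in that overlap cannot be assigned to either gene. *Trmt112* itself had a log2 fold change of -0.28 over all libraries (limma adjusted p = 0.929). It was 0.39 in the more-gene set, where *Esrra* was also higher in Homo, and -0.56 in the fewer-gene set. Any part of *Trmt112* reads in the *Esrra* values was not tested. *Trmt112* was singled out after its values were seen.

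*Nrf1* (ENSMUSG00000058440, chromosome 6 from 30047988 to 30153458, plus strand) encodes nuclear respiratory factor 1, which acts on nuclear genes of the respiratory chain. Levels in WT 1 to WT 5 were 13.6, 3.85, 6.45, 9.05 and 8.51 FPKM, and the lowest, median and highest Homo values were 2.09, 2.89 and 14.1 FPKM. Homo 1 held the highest *Nrf1* of all 12 libraries, and 4 of the 7 Homo libraries lay below the lowest WT library. The log2 fold change was -0.81 (95% confidence interval -1.64 to 0.026, limma unadjusted p = 0.0566, adjusted p = 0.899; exact permutation p = 0.0909). It was below 0 in both library sets, -0.67 in the fewer-gene and -1.06 in the more-gene set. Leaving out single libraries moved it from -0.62 without WT 1 (unadjusted p = 0.151) to -1.07 without Homo 1 (unadjusted p = 0.00351, adjusted p = 0.847).

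*Tfam* (ENSMUSG00000003923, chromosome 10 from 71225464 to 71238280, minus strand) encodes mitochondrial transcription factor A. The WT libraries, in order, held 1.65, 6.86, 6.21, 4.20 and 6.28 FPKM, and Homo had a lowest value of 4.33, a median of 9.39 and a highest value of 19.5 FPKM. Above the highest WT library lay 5 of the 7 Homo libraries, while Homo 2 and Homo 6 lay among the WT values. The mean was 97.4% higher in Homo, and the log2 fold change was 0.81 ± 0.37 (standard error; limma unadjusted p = 0.0457, adjusted p = 0.899; exact permutation p = 0.0732). *Tfam* was higher in Homo by 1.21 in the fewer-gene and 0.37 in the more-gene set, and by 0.83 once set was a term (p = 0.0905 by exact permutation inside the sets). Without WT 1, the library with the least *Tfam*, the log2 fold change was 0.54 (unadjusted p = 0.150), and the unadjusted p was also above 0.05 without WT 4 or without any of Homo 1, 3, 4, 5 and 7. *Tfam* and *Nrf1* thus differed in opposite directions, neither beyond the scatter of the mice after adjustment.

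**Figure D2:**
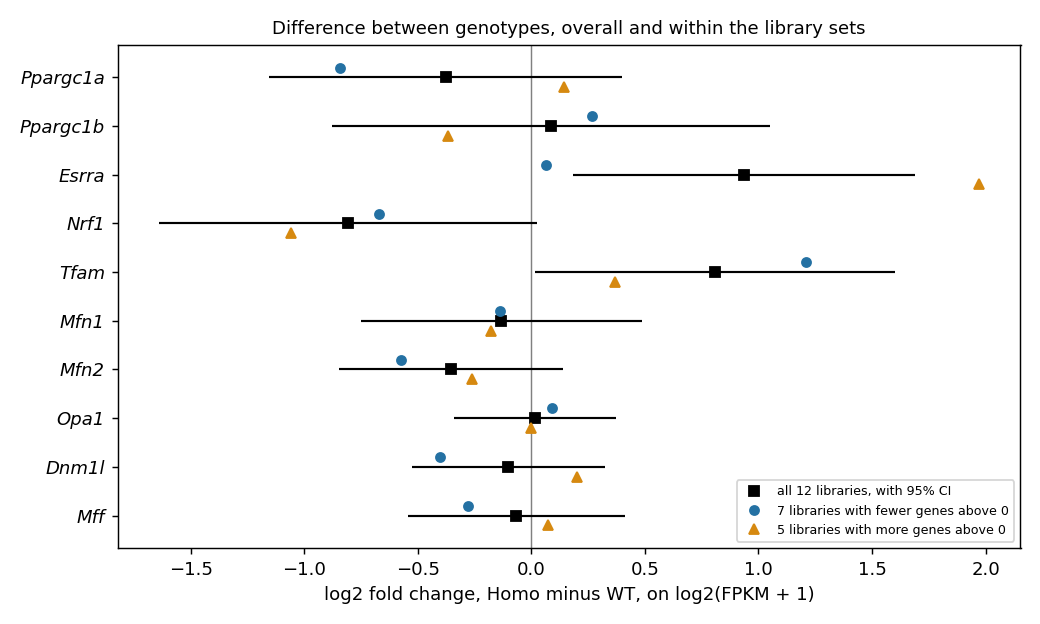
Difference between the genotypes for each of the 10 genes, as a log2 fold change on log2(FPKM + 1), Homo minus WT. Black squares with 95% confidence intervals are from all 12 libraries, and blue circles and orange triangles are the differences inside each library set. Intervals of *Esrra* and *Tfam* lie above 0, and those of the other 8 genes cross it.

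Among the fusion genes, *Mfn2* had the largest difference. *Mfn2* (ENSMUSG00000029020, chromosome 4 from 147873599 to 147904704, minus strand), a mitofusin that also tethers mitochondria to the endoplasmic reticulum, held 59.1, 30.4, 33.6, 20.7 and 44.3 FPKM in the WT libraries in order. In Homo it ran from 23.5 to 36.0 FPKM with a median of 27.4 FPKM. The 2 highest libraries were WT and so was the lowest, so that Homo lay inside the WT range. Its log2 fold change was -0.35 (95% confidence interval -0.85 to 0.14, limma adjusted p = 0.915; exact permutation p = 0.155). It was -0.58 and -0.26 in the fewer-gene and more-gene sets, and it ran from -0.17 without WT 1 to -0.54 without WT 4 (unadjusted p = 0.0257, adjusted p = 0.808).

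*Mfn1* (ENSMUSG00000027668, chromosome 3 from 32529465 to 32579239, plus strand), the other mitofusin, held 17.1, 7.66, 9.06, 6.88 and 21.0 FPKM in the WT libraries in order and between 5.82 and 14.0 FPKM in Homo, with a median of 10.6 FPKM. WT 1 and WT 5 lay above all Homo libraries, and the other 3 WT libraries lay among them. The log2 fold change of *Mfn1* was -0.13 (95% confidence interval -0.75 to 0.49, limma adjusted p = 0.978).

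*Opa1* (ENSMUSG00000038084, chromosome 16 from 29579334 to 29654884, plus strand), the inner membrane fusion GTPase that also shapes cristae, was the steadiest of the 10. Its levels were 15.6, 16.6, 15.2, 15.8 and 24.4 FPKM in WT 1 to WT 5 and between 15.7 and 20.7 FPKM in Homo, with a median of 17.7 FPKM. WT 5 stood above the rest. The means were 17.5 FPKM in both genotypes, and the log2 fold change was 0.016 (95% confidence interval -0.34 to 0.37).

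*Dnm1l* (ENSMUSG00000022789, chromosome 16 from 16312230 to 16358959, minus strand) encodes DRP1, the GTPase that constricts mitochondria. Levels were 42.8, 34.1, 23.0, 27.1 and 37.1 FPKM in WT 1 to WT 5 and between 20.7 and 38.1 FPKM in Homo, with a median of 31.1 FPKM, so both ranges began near the same level and WT 1 alone lay above the highest Homo library. An annotated antisense gene, *Gm49521*, covers 9757 bases of the *Dnm1l* locus, introns included. It had no level in these data, and overlap of exons was not examined. Whether any of its reads were counted for *Dnm1l* is therefore unknown. For *Dnm1l* the log2 fold change was -0.10 (95% confidence interval -0.53 to 0.33, limma adjusted p = 0.973). The signs differed between the sets, -0.40 in the fewer-gene and 0.20 in the more-gene one, with no gap between them past the threshold (limma unadjusted p = 0.164).

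*Mff* (ENSMUSG00000026150, chromosome 1 from 82724890 to 82752394, plus strand) encodes the outer membrane receptor for DRP1 and is a known AMPK substrate. Its levels were 52.2, 75.4, 38.3, 47.2 and 63.8 FPKM in WT 1 to WT 5, and between 36.8 and 86.3 FPKM in Homo with a median of 49.0 FPKM. The highest and the lowest of the 12 libraries were both Homo. The log2 fold change of *Mff* was -0.066 (95% confidence interval -0.54 to 0.41, limma adjusted p = 0.990). Opposite signs in the 2 library sets were seen for 5 of the 10 genes, *Ppargc1a*, *Ppargc1b*, *Opa1*, *Dnm1l* and *Mff*. Within the fewer-gene set alone 0 of the 10 had a limma unadjusted p under 0.05 (5.98% of all genes), and within the more-gene set 2 did, *Esrra* and *Nrf1* (5.07% of all genes). Between the library sets themselves, with genotype in the model, 0 of the 10 genes differed at an unadjusted p under 0.05 (8.42% of all genes) or after adjustment (0.178%).

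Ratios between related genes were taken inside each library as differences of log2(FPKM + 1), in which the added 1 shrinks the ratio where a gene is low, as *Ppargc1b* was. Compared were the 2 coactivators, the 2 mitofusins, and the fission receptor with its GTPase. *Ppargc1a* exceeded *Ppargc1b* in 12 of 12 libraries, by 2.91 ± 0.69 on the log2(FPKM + 1) scale in the 5 WT and 2.44 ± 1.25 in the 7 Homo libraries (± SD). The spread in Homo came from both ends, 0.56 in Homo 1 and 4.09 in Homo 5. With 0.1 added in place of 1, the difference between genotypes in this ratio was -0.33 in place of -0.46. *Mfn2* exceeded *Mfn1* in 12 of 12 libraries, by 1.58 ± 0.33 in WT and 1.35 ± 0.51 in Homo. *Mff* exceeded *Dnm1l* in 11 of 12, all but Homo 4, by 0.73 ± 0.30 in WT and 0.77 ± 0.53 in Homo. None of the 3 ratios differed between genotypes beyond the scatter of the mice (exact permutation p = 0.475, 0.420 and 0.895 in that order; 0.712, 0.712 and 0.895 after Benjamini-Hochberg adjustment over the 3).

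**Figure D3:**
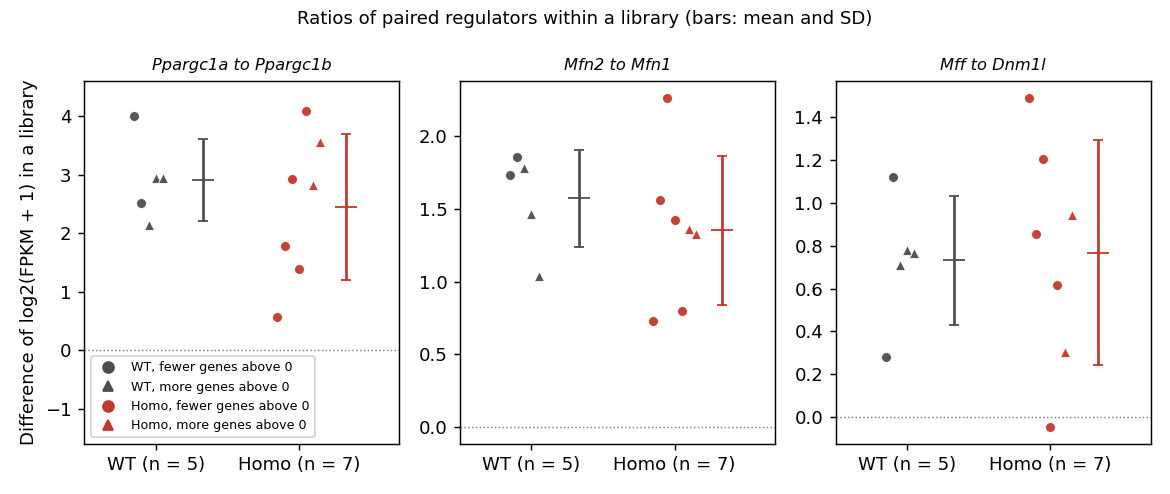
Ratio of each pair of genes inside a library, as the difference of their log2(FPKM + 1) values, for WT (grey, n = 5) and Homo (red, n = 7). Points are libraries with the shape giving the library set, and bars are the mean and SD. Points of the genotypes overlap in each panel, and a single library falls below 0, Homo 4 for *Mff* to *Dnm1l*.

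The wider pathways were read from 6 lists, which hold the 10 genes too (5 in the biogenesis, 3 in the fusion and 2 in the fission list). Of 29 genes of biogenesis and mitochondrial DNA maintenance tested, 13 had a higher and 16 a lower mean log2 level in Homo, with a median log2 fold change of -0.058, against -0.0062 for all genes tested. At an unadjusted p under 0.05, 3 were higher (*Esrra*, *Tfam* and *Polrmt*) and 1 was lower (*Tfb1m*). Without the 10 genes, 24 were left, of which 10 were higher, with a median of -0.081 and 1 gene past that p in each direction, where 5.55% of all genes tested had such a p. *Polrmt*, the RNA polymerase of mitochondria, had a mean of 11.6 ± 5.29 FPKM in the 5 WT and 23.6 ± 10.7 FPKM in the 7 Homo libraries (± SD). On the log2 scale the difference was 0.91 (limma unadjusted p = 0.0487, adjusted p = 0.899; exact permutation p = 0.0922) and was 1.04 in each library set. *Tfb1m*, which methylates the small mitochondrial ribosomal RNA, was measured at 4.45 ± 1.88 and 2.19 ± 1.14 FPKM, a log2 fold change of -0.75 (unadjusted p = 0.0376, adjusted p = 0.899). The most abundant of the list were *Ncor1*, a corepressor, at a mean of 69.7 FPKM over the 12 libraries, *Mterfd1* at 28.1 FPKM and *Gabpa*, a subunit of the ETS factor GABP, at 19.6 FPKM, with log2 fold changes of -0.10, 0.041 and -0.30.

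No gene of the fusion list (16 tested, 10 higher, median 0.065), the fission list (15 tested, 9 higher, median 0.068) or the list for transport along microtubules (13 tested, 7 higher, median 0.0015) had an unadjusted p under 0.05. Of all genes tested 5.55% did. Without the 10 genes, 9 of 13 fusion genes and 9 of 13 fission genes were higher, with medians of 0.10 and 0.073. *Fis1*, a fission adaptor, was the most abundant of the fission genes at 116 FPKM, above *Mff*, with a log2 fold change of 0.21 (limma adjusted p = 0.942). In the fusion list the highest levels were those of *Phb2*, a prohibitin (43.6 FPKM), *Immt*, a cristae organiser (39.5 FPKM), and *Stoml2* (38.1 FPKM), with log2 fold changes of 0.51, 0.19 and 0.34. *Phb2* stood at 153 FPKM in Homo 3, against 18.1 to 45.6 FPKM in the other libraries, and its first place rested on Homo 3. The kinesin *Kif1b* (247 FPKM), the light chain *Klc1* (115 FPKM) and *Kif5c* (63.1 FPKM) led the transport list, with log2 fold changes of -0.29, 0.16 and -0.012.

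In the mitophagy list, which holds genes that clear damaged mitochondria, 11 of 15 genes tested had higher means in Homo, with a median of 0.062, and *Pink1* alone had an unadjusted p under 0.05. Over all genes tested 49.3% were higher and 5.55% had such a p, so a single gene of 15 is near the background. *Pink1*, the kinase that marks depolarised mitochondria, was measured at 57.0, 42.1, 41.6, 60.7 and 42.5 FPKM in the WT libraries in order, with 57.0, 73.4 and 83.0 FPKM the lowest, median and highest Homo values. Of all pairs of a Homo and a WT library, only Homo 3 lay below a WT library, WT 4, and it was level with WT 1. The log2 fold change of *Pink1* was 0.53 (standard error 0.16, limma unadjusted p = 0.00594, adjusted p = 0.763; exact permutation p = 0.00253). It was 0.51 in each library set, and exact permutation within sets gave p = 0.00952. *Sqstm1*, an adaptor of autophagy at 149 FPKM, and *Fkbp8* at 48.8 FPKM had log2 fold changes of 0.070 and 0.033.

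Genes commonly given as targets of these regulators were split, with 8 of 15 higher in Homo and a median of 0.0094. *Tomm34* had an unadjusted p under 0.05 (21.3 ± 6.00 FPKM in WT and 29.9 ± 7.47 FPKM in Homo, log2 fold change 0.48, limma unadjusted p = 0.0439, adjusted p = 0.899), as did *Tfb1m*, which this list also holds. Such a p was found for 5.55% of all genes tested. With library set as a term *Tomm34* was at 0.33 with an unadjusted p of 0.114. The most abundant were the respiratory chain genes *Atp5b* (1558 FPKM), *Cox4i1* (996 FPKM) and *Cox6a1* (653 FPKM), whose log2 fold changes were -0.11, 0.25 and 0.46 (limma adjusted p = 0.961, 0.919 and 0.905). Adjusted p was above 0.05 for every gene of the 6 lists.

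**Figure D4:**
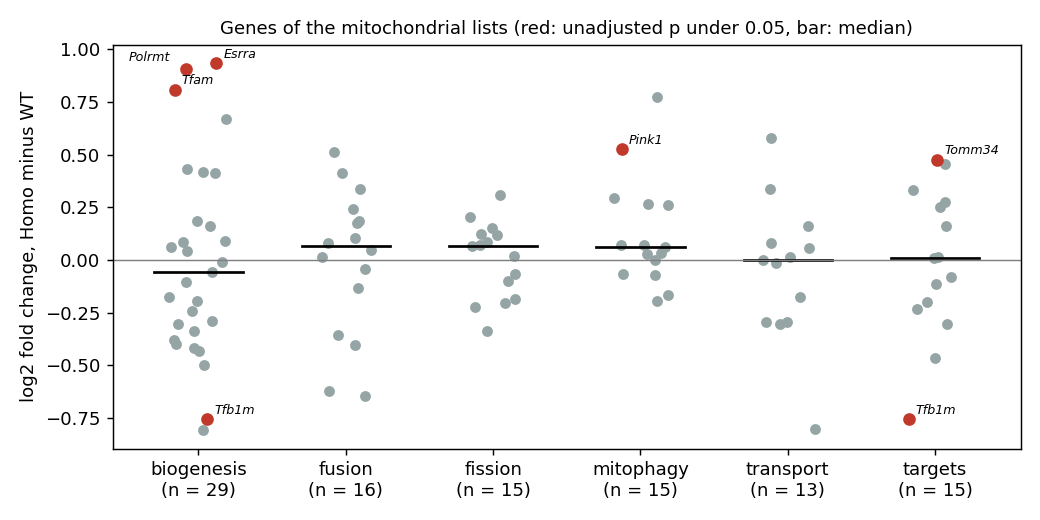
Log2 fold change, Homo minus WT, of every tested gene of the 6 lists (points, spread sideways for sight), with the list median as a black bar. Red points had a limma unadjusted p under 0.05 and are named, and list medians lie between -0.058 and 0.068.

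The captured tissue held other cell types, whose shares can differ between libraries, and in such bulk samples fewer cells of a type and less RNA per cell cannot be told apart. Arcuate neuron markers were present in every library, with 9 of 10 higher in Homo (summed level 2043 to 6686 FPKM in WT and 4810 to 6811 FPKM in Homo), as were 9 of 12 neuron markers (858 to 1185 and 871 to 1279 FPKM), where 49.3% of all genes tested were higher. The lowest arcuate sum, 2043 FPKM, was that of WT 3 alone, and the next lowest was 3914 FPKM in WT 4. The median log2 fold change of the arcuate markers was -0.29 in the fewer-gene and 0.71 in the more-gene set, which holds WT 3. Higher means in Homo were also found for 7 of 9 astrocyte, 8 of 8 oligodendrocyte and 9 of 9 microglial markers tested, with sums of 512 to 942, 115 to 598 and 65.6 to 123 FPKM in WT and 683 to 834, 179 to 449 and 98.5 to 170 FPKM in Homo. At an unadjusted p under 0.05, 2 arcuate, 2 microglial and 1 neuron marker were higher and 1 ependymal or tanycyte marker was lower. Of all genes tested 5.55% had such a p. With library set as a term 0 arcuate, 3 microglial, 1 neuron, 1 astrocyte and 1 ependymal or tanycyte marker had such a p. The share of all genes tested was then 4.78%. *Mog* and *Opalin* of the oligodendrocyte list were at 0 in some libraries. Of endothelial and of ependymal and tanycyte markers 4 of 8 and 3 of 10 were higher, with sums of 28.5 to 44.6 and 49.1 to 93.8 FPKM in WT and 30.6 to 53.8 and 30.5 to 86.2 FPKM in Homo. WT 3 also held the lowest sums of neuron, astrocyte, microglial and endothelial markers. Markers of nearby nuclei and the pituitary, 9 of whose 12 genes were at 0 in some library, varied most, from 11.0 to 1098 FPKM in WT and 16.6 to 579 FPKM in Homo. WT 5 held the highest sums of these markers and of oligodendrocyte markers, 1098 and 598 FPKM. The part of these differences in the values of the 10 genes was not tested.

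For each of the 10 genes the gene most like it across the 12 libraries, out of all genes tested, was found by Pearson correlation of log2(FPKM + 1). These are descriptions of a best match among many, over libraries that differ in the number of genes above 0, and carry no p. *Dnm1l* was closest to *Cbln4*, a secreted synaptic organiser (r = 0.96, Spearman's rho 0.91, and r = 0.92 without the 2 libraries farthest from the median of *Dnm1l*). *Ppargc1a* was closest to *Ckap4* (r = 0.94, and 0.79 without the 2 farthest libraries, WT 1 among them). The closest to *Mfn1* was *Atg9a*, a membrane protein of autophagy (r = 0.91), to *Mfn2* *Rps6ka1* (0.90, and 0.74 without the 2 farthest), to *Mff* *Ttll11* (0.91), to *Tfam* *AU040320* (0.89, and 0.66 without the 2 farthest) and to *Esrra* *Stard6* (0.84). *Ppargc1b* was closest to the row AL683804.1 (0.90) and *Opa1* to the small nucleolar RNA SNORA17 (0.90, with a Spearman's rho of 0.65). Without the 2 libraries farthest from the median of *Opa1*, SNORA17 did not vary and no correlation could be computed. The match of *Opa1* with SNORA17 therefore rested on those 2 libraries. Among the 10 genes themselves the highest correlation was between *Mfn1* and *Dnm1l* (0.62), and the lowest was between *Tfam* and *Mfn2* (-0.52).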

How the data were processed

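Libraries from the laser-captured ARC of 5 WT and 7 Homo mice, 1 per mouse, were analysed. The authors deposited 1 table of FPKM values, 1 column per library. The submitters' processing notes name TopHat2 2.0.8, Cufflinks 2.2.1 and GRCm38; their settings and any further scaling are not given in the sources used here. All 12 columns were matched to mice by label (those of Homo 4 and 5, which carry an extra letter, by genotype and number), and 0 were left over. FPKM are not counts, and only 11.5% to 43.8% of the low values lay within 0.05 of a whole step of an estimated fragment, too few to recover reads, so depth is unknown.

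Values were taken as log2(FPKM + 1). The 14017 genes with a mean of at least 1 FPKM entered a linear model of genotype alone in limma 3.58.1 (R 4.3.3), with robust empirical Bayes variances that follow the mean level and Benjamini-Hochberg adjustment. Exact two-sided permutation tests used all arrangements of the libraries, or the 210 within library sets, with smallest possible p of 0.0013 and 0.0048. Scripts were tested on simulated data. Library sets were cut at the largest gap in genes above 0. Positions are from GENCODE mouse release 21 (GRCm38), in which 97.5% of tested identifiers were found; promoters are from RefSeq.

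The 10 genes and all lists were chosen with earlier results of these data known. Named genes are the 10, *Prkag2*, listed genes with an unadjusted p under 0.05, the 3 most abundant per list, and each gene's best match (that of *Nrf1* is not reported here). Genes overlapping 2 of the 10 (*Trmt112*, *Gm49521*) and markers at 0 (*Mog*, *Opalin*) fall outside this rule. All but *Gm49521*, which had no level in these data, were chosen after their values were seen. The lists were biogenesis, fusion, fission, mitophagy, transport, targets and 8 of cell markers. Alternatives covered the pseudocount, filter, scaling, library set, array weights, Homo 1 to 5 alone, a replicate block and each library left out. Plots were drawn with matplotlib 3.10.9.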

Additional observations from a re-analysis of the deposited data

Results flagged for a closer look

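A library stood apart from the others of its genotype in 3 of the 20 groups examined (10 genes in 2 genotypes) by Dixon's criterion, taken on FPKM without log2. Its rate of about 1 in 20 groups by chance holds for independent groups of normally distributed values. The 20 groups share the same 12 libraries, and all 3 values were the highest of their group, so the count cannot be set against that rate. *Ppargc1a* in WT 1 was at 47.1 FPKM, against 9.61 to 14.5 FPKM in the other WT libraries. *Nrf1* in Homo 1 was at 14.1 FPKM, against 2.09 to 5.09 FPKM in the other Homo libraries. *Opa1* in WT 5 was at 24.4 FPKM, against 15.2 to 16.6 FPKM in the other WT libraries. The cause was not tested in any of them.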

How the results depend on the processing

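Across the low-value filters, scalings, pseudocounts, library set term, array weights, library subsets and replicate block, 98 of 108 log2 fold changes of the 10 genes kept their sign and their side of the adjusted threshold, and 10 changed sign. *Ppargc1b* became -0.071 with a pseudocount of 0.1 and -0.022 with library set as a term. In the more-gene set alone *Ppargc1b* was -0.37, *Ppargc1a* 0.14, *Opa1* -0.0010, *Dnm1l* 0.20 and *Mff* 0.075. *Dnm1l* was 0.018 with array weights, and *Opa1* was -0.0027 with Homo 1 to 5 alone and under the replicate block. Leaving out each library in turn gave -0.15 to 0.24 for *Ppargc1b*, -0.29 to 0.080 for *Mfn1*, -0.027 to 0.13 for *Opa1*, -0.22 to 0.00078 for *Dnm1l*, -0.19 to 0.053 for *Mff* and -0.086 to 0.17 for the ratio of *Mff* to *Dnm1l*; the other 5 genes and both other ratios kept their sign.

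Of the 10 genes, 2 had a limma unadjusted p under 0.05 with all libraries. That count was 1 without a low-value filter, with a minimum mean of 5 FPKM (which removes *Esrra* and *Ppargc1b*), with quantile or upper-quartile scaling, with library set as a term and with Homo 1 to 5 alone, 0 in the fewer-gene set, and 1 to 3 when each library was left out. It was 3 with a pseudocount of 0.1, where *Nrf1* joined (limma unadjusted p = 0.0488, adjusted p = 0.880), and the 2 with array weights were *Esrra* and *Nrf1*. Over the 14017 genes tested, 778 had such a p with all libraries. That number was 783 with the pseudocount of 0.1, 920 with quantile scaling, 947 with upper-quartile scaling and 670 with library set as a term. With array weights it was 844, with Homo 1 to 5 alone 973, in the fewer-gene set 838 and with a library left out 607 to 890. Without the filter it was 1066 of 23611 genes, and with the minimum mean of 5 FPKM 537 of 8724. Of all genes, 1 passed the adjusted threshold, against 6 in the fewer-gene set, 19 in the more-gene set, 4 with Homo 1 to 5 alone and 1 to 3 with a library left out (3 without WT 2, 2 without Homo 4). With replicate number as a block over the 10 libraries that share numbers, 2 genes passed and 1 of the 10 genes, *Nrf1*, had an unadjusted p under 0.05. In that fit 970 of the 14017 genes tested had such a p. Same-numbered libraries did not deviate together (correlations from -0.054 to 0.029). That check cannot tell whether the numbers pair the mice, since WT 3 to 5 and Homo 3 to 5 lay in different library sets. The cause of these changes in the counts was not tested. FPKM carry no exact depth, so low values, *Esrra* and *Ppargc1b* above all, have an unknown counting error.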
